A study of Mus musculus with 6 samples.

Results

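The genes described here make cholesterol and fatty acids or control that synthesis, and their expression was read in iTreg, mouse T cells turned into regulatory T cells in culture. There are 37 of them by name: 18 enzymes of sterol synthesis, 9 enzymes of fatty acid synthesis and 10 genes of sterol control. All 37 have an entry among the 47643 gene IDs of the tables, and 36 reach a mean of at least 1 FPKM (fragments scaled to transcript length and library size) over the 6 libraries, the level at which 12113 genes were tested. Abca1 stayed under that level. The cells came from spleens of C57BL/6 mice with the genotype Foxp3-DTR/EGFP, in which the gene for Foxp3, the factor that defines regulatory T cells, carries a green reporter. CD4+ T cells were cultured for 2 days on antibodies to CD3 and CD28 with TGF-β, then given vehicle (DMSO) or 100 nM prostaglandin E2 (PGE2) for 6 h, and Foxp3+ cells were sorted on the reporter. Each group holds 3 libraries. Antibody stimulation, TGF-β and the reporter allele are therefore common to both groups, and neither group is of resting cells. The labels give no age and do not say whether the replicates are separate mice or cultures, and the p-values therefore measure the spread between these samples alone, which may be technical.

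Cholesterol is built from acetyl-CoA by way of mevalonate, squalene and lanosterol, and the same mevalonate feeds isoprenoids that anchor signalling proteins to membranes. The genes of this route are switched on by SREBP factors, which the escort protein Scap carries out of the endoplasmic reticulum when sterols are low and which Insig proteins hold back when sterols are high. Sterol excess is read by LXR receptors, which raise cholesterol export. T cells turn SREBP targets on when they are activated, because dividing cells need new membrane.

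Depth, read as the ratio of coverage to FPKM, was 3.996 to 5.121 gigabases of fragments with vehicle and 4.542 to 5.446 with PGE2, and replicate 3 was the shallowest of each group. All 5 regulatory T cell markers and both T cell markers were present, with Foxp3 at 75.4 to 101 FPKM with vehicle and 91.1 to 136 with PGE2. The summed levels of markers of other cells were low: 0.38 to 0.45 FPKM with vehicle and 0.526 to 0.695 with PGE2 for 3 B cell genes, 1.87 to 5.19 and 2.73 to 4.28 for 4 myeloid genes, and 0.702 to 0.921 and 0.603 to 1.16 for 4 erythroid and platelet genes. They were 6.19 to 8.06 and 8.46 to 11.1 FPKM for 4 CD8 and NK genes, and 9.13 to 10.7 and 10.5 to 12.1 for 3 stromal and endothelial genes, most of it Pecam1. Ncr1, Pf4 and Ppbp were listed at 0 in all 6 libraries.

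After 6 h of PGE2, 0 of the 36 genes rose and 0 fell by limma at an adjusted p under 0.05, a call that 0.809% of all tested genes passed (0.57% rose and 0.239% fell). At an unadjusted p under 0.05, 3 were higher (Elovl6, Mvk and Scd1) and 1 was lower (Scap), which is 4 of 36 beside 13.0% of all tested genes (5.46% higher, 7.59% lower). The groups did not overlap for 7 of the 36: Elovl6, Scd1, Mvk, Lss and Insig1 were higher in all PGE2 libraries than in all vehicle libraries, and Scap and Acaca lower, beside 19.7% of all tested genes (7.81% higher, 11.9% lower). Counted in either direction, both shares lie near their background. When the assembled loci on the gene's strand replaced the annotated entry, the groups overlapped for Mvk, Lss and Scap. The mean was higher with PGE2 for 23 of the 36 (63.9%) and lower for 13, while it was higher for 43.3% of all tested genes. Their median log2 change was 0.06, against -0.03 over all tested genes. For 30 of the 36 the 95% interval of the change lay inside 1.5-fold in either direction (83.3%, beside 75.3% of all tested genes). For genes near 1 FPKM the added 1 narrows this range: the log2 change of Acaca was -0.21 with it and -0.36 with a pseudocount of 0.1. The 6 exceptions were Hmgcs1, Fdps, Tm7sf2, Dhcr7, Scd1 and Elovl6. With the replicate number as a block, 0 of the 36 passed, beside 3.26% of all tested genes. In bulk libraries a lower share of cells of a type and less RNA per cell cannot be told apart.

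**Figure D1:**
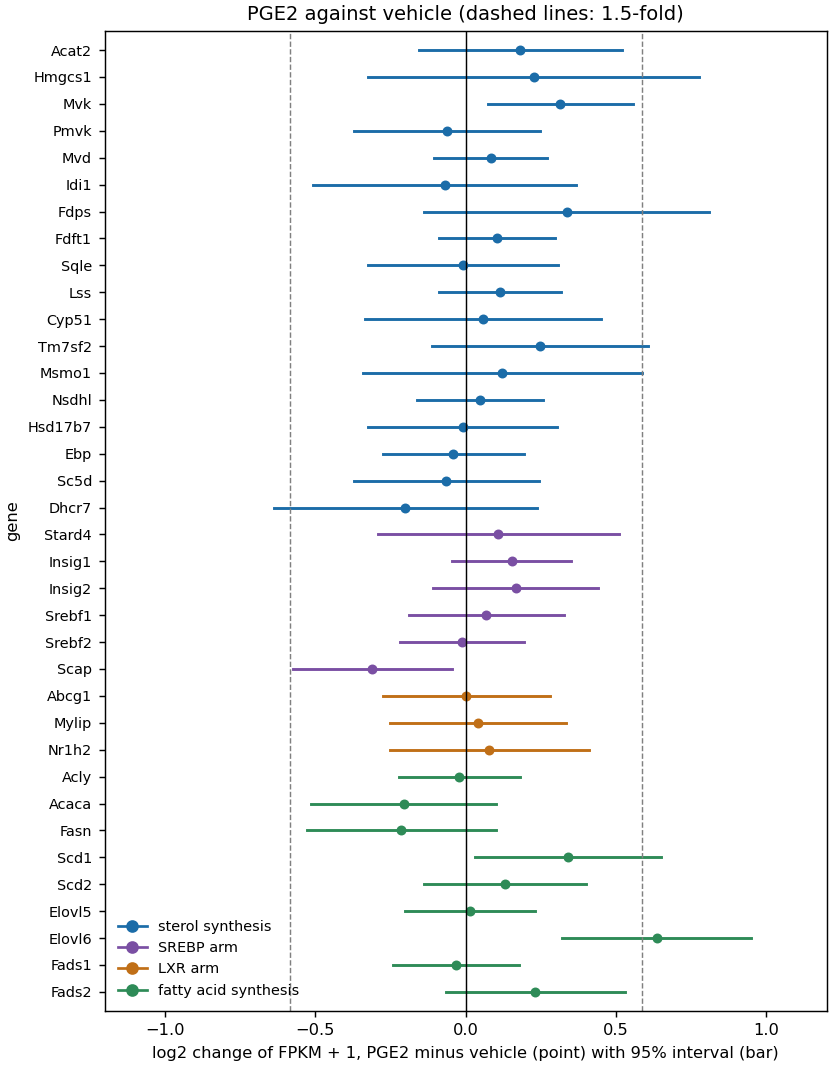
Log2 change of FPKM + 1, PGE2 minus vehicle, for the 36 tested genes (horizontal axis), with the point at the estimate and the bar at its 95% interval from limma over 3 against 3 libraries; colours give the group of genes and dashed lines mark 1.5-fold. The bars of Elovl6, Scd1 and Mvk lie to the right of 0 and that of Scap to its left, none of them passing after adjustment over 12113 genes, and the bars of the other 32 cross 0.

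Promoter sequences were at hand for 29 of the 37 genes, from RefSeq on GRCm38.p6, the build of mm10. Hmgcs1 was the sterol gene with the largest SD within groups on the log2 scale, and Mvk, Insig1 and Elovl6 differed without overlap in their annotated entries. To show binding letters upstream, the 250 bases before the RefSeq start of these 4 genes are shown 5′ to 3′ on the gene's strand. They lie at chr13:119690101-119690350 (Hmgcs1), chr5:114444019-114444268 (Mvk), chr5:28071162-28071411 (Insig1) and chr3:129532136-129532385 (Elovl6), all on the plus strand. Capitals mark every match, on either strand, to 4 short motifs. These are TCACNCCAC, the core of the sterol response element that SREBP binds, the E-box (letters CACGTG, also bound by SREBP and other factors), the box of NF-Y (letters CCAAT) and the GC box of Sp1 (letters GGGCGG).
Hmgcs1: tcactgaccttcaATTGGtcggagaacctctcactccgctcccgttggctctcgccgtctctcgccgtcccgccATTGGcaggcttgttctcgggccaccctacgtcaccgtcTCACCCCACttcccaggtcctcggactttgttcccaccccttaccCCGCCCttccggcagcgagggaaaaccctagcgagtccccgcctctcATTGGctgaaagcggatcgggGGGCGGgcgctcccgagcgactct
Mvk: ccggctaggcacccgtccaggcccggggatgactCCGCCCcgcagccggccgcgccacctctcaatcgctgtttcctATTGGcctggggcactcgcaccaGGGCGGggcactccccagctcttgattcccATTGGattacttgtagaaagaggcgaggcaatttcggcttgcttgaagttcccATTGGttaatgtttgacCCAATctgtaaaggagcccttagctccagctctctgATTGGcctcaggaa
Insig1: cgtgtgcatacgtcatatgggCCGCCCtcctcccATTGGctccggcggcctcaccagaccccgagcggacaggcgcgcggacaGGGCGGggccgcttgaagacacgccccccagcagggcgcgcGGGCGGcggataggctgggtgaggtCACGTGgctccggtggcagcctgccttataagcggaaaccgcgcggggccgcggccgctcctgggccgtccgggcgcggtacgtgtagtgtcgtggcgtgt
Elovl6: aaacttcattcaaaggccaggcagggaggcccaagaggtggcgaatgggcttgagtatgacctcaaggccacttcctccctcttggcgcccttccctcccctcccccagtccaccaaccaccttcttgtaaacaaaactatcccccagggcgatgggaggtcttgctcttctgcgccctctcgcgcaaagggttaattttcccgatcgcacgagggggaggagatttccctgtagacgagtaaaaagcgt
Hmgcs1 holds the core from 137 to 129 bases before its start, with 3 CCAAT boxes and 2 GC boxes. It was the 1 gene of the 29 with the core, beside 1.22% of all 27025 genes with a promoter, and 0 of the 29 held the form with an A before the core, beside 0.226%. Mvk has 5 CCAAT boxes and 2 GC boxes, Insig1 has 1 E-box, 1 CCAAT box and 3 GC boxes, and Elovl6 has no match to these letters. CCAAT was found in 14 of the 15 sterol synthesis genes with a promoter, in 2 of 6 fatty acid genes and in 5 of 8 control genes, beside 37.5% of all genes. The GC box was found in 14 of 15, 2 of 6 and 7 of 8, beside 35.4%, and the E-box in 3 of 15, 1 of 6 and 3 of 8, beside 6.86%. The shares over all 27025 genes were not limited to genes expressed in these cells, while all of the 29 but Abca1 reached the tested level, so the sets are unlike. A gene with several starts counts once if any of its promoters holds the letters. A match is a description of the sequence and not a bound site.

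All 3 groups held genes that were well expressed in these cells, and levels differed widely within each group. Fdps, farnesyl diphosphate synthase, was the highest with vehicle at 72.8 ± 14.8 FPKM (SD, n = 3). Acly, which cleaves citrate into the acetyl-CoA that both routes use, followed at 69.4 ± 3.42 FPKM, and Scd2, a desaturase that makes monounsaturated fatty acids, at 63.6 ± 9.4. The bars of these 3 overlap, so their order is within the spread of the libraries. Srebf2, the SREBP factor best known for sterol genes, stood at 52.7 ± 2.1 FPKM and Srebf1, better known for fatty acid genes, at 30.1 ± 2.7. At the low end with vehicle were Mylip at 1.17 ± 0.0778 FPKM, Acaca at 1.3 ± 0.156 and Scd1 at 1.88 ± 0.333. The value for Acaca, acetyl-CoA carboxylase, understates its locus: the annotated gene held 9.67% to 13.4% of the FPKM of the assembled loci at that place. The loci gave 9.31, 10.7 and 10.9 FPKM with vehicle and 8.57, 9.03 and 8.28 with PGE2.

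**Figure D2:**
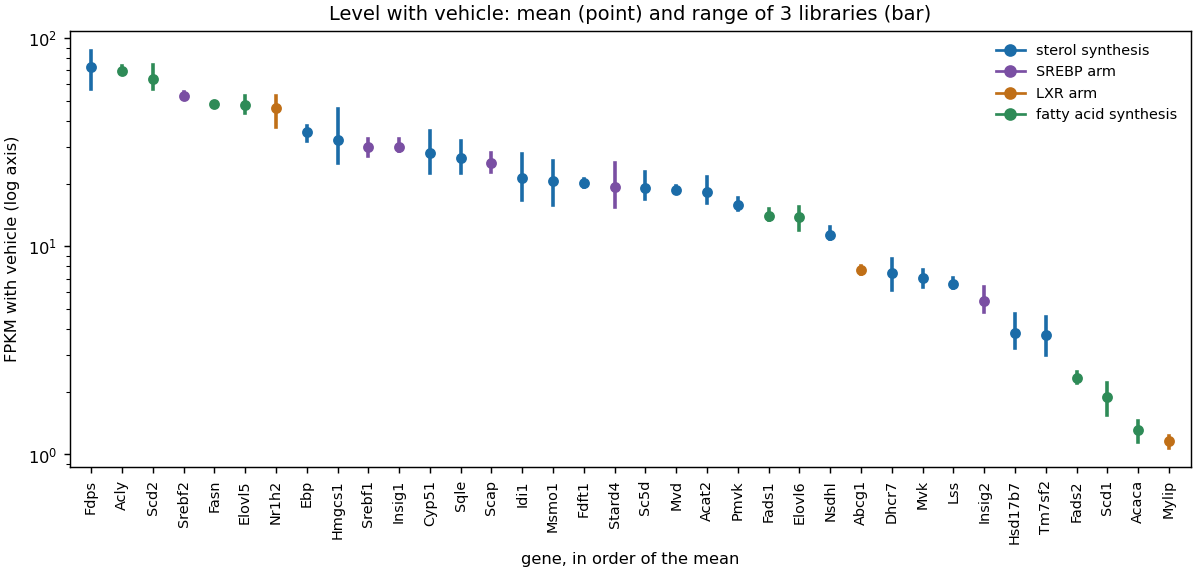
FPKM with vehicle of the 36 tested genes in order of their mean (log axis), the point giving the mean and the bar the range of 3 libraries, coloured by group of genes. Levels run from Fdps at 72.8 to Mylip at 1.17 FPKM, and Hmgcs1 has the widest bar of the better expressed genes.

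Elovl6, whose printed promoter holds none of the motifs, had the largest difference. It encodes the elongase that lengthens palmitate to stearate (ENSMUSG00000041220.10, mm10 chromosome 3 from 129532355 to 129638495, annotated as protein coding). It was at 15.4, 11.9 and 14.1 FPKM with vehicle and at 18.5, 23.9 and 23.7 with PGE2, in the order of replicates 1, 2 and 3, an order kept for every gene below. The lowest PGE2 library lay above the highest vehicle library, and the gap was narrowest between the libraries numbered 1. The ratio of the groups was 1.55-fold on the log2(FPKM + 1) scale (95% interval 1.25 to 1.93, log2 change 0.64, SE 0.13), with adjusted p = 0.0927 by limma. Read coverage of the gene gave the same direction, with mean depths of 7.4, 7.63 and 6.61 with vehicle and 15.3, 12.7 and 10.3 with PGE2. After scaling to library depth its log2 change was 0.47 (SE 0.08, adjusted p = 0.0537 with limma, beside 1.31% of all tested genes that passed in coverage). Taken as the assembled loci on its strand, Elovl6 was at 17.5, 15.7 and 17.9 FPKM with vehicle and at 29.0, 26.2 and 25.5 with PGE2, and there it passed (log2 change 0.63, adjusted p = 0.0498 with limma, a measure chosen after the data were seen). Over the 13 alternatives its adjusted p ran from 0.0498 to 0.3, so this gene sits at the edge of the threshold.

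None of the enzymes that make palmitate passed. Acly was at 67.7, 67.1 and 73.3 FPKM with vehicle and 71.9, 69.9 and 63.6 with PGE2, with groups that overlap. Fasn, fatty acid synthase, was at 49.4, 47.1 and 47.8 FPKM with vehicle and at 48.2, 43.6 and 33.4 with PGE2. Only PGE2 replicate 3 stood well below the vehicle range, and the ratio was 0.862 (95% interval 0.693 to 1.07, adjusted p = 0.574 with limma). The log2 change of Fasn was -0.21, and -0.07 without replicate 3 of both groups. Acaca was lower in each PGE2 library than in each vehicle library, by a narrow margin (1.14, 1.31 and 1.45 against 1.12, 1.08 and 0.8 FPKM), with an interval of 0.701 to 1.07.

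Among the 4 desaturases none passed. Scd1, the paralog of Scd2, was at 1.9, 1.55 and 2.21 FPKM with vehicle and 2.98, 2.46 and 2.48 with PGE2. Its groups did not overlap, and its ratio of 1.27 (95% interval 1.02 to 1.57) missed the threshold at adjusted p = 0.336 by limma. Scd2 was far more abundant in FPKM, at 56.9, 59.6 and 74.4 with vehicle and 72.7, 69.1 and 66.2 with PGE2, and overlapped between groups (ratio 1.1, interval 0.909 to 1.32). The 2 genes lie 87586 bases apart on chromosome 19, with Scd4 between them. They are related in sequence, so the split of reads between them is uncertain, and it was not tested. Scd3 and Scd4 were under 1 FPKM in every library. Fads2, the delta-6 desaturase of polyunsaturated fatty acids, was at 2.21, 2.3 and 2.49 FPKM with vehicle and 3.21, 3.21 and 2.37 with PGE2, where replicate 3 fell inside the vehicle range. Fads1, the delta-5 desaturase beside it on chromosome 19, had a ratio of 0.977 (0.845 to 1.13), and Elovl5, an elongase of polyunsaturated fatty acids, one of 1.01 (0.87 to 1.17). By limma 0 of the 9 fatty acid genes were called, beside 0.809% of all tested genes. At an unadjusted p under 0.05, 2 were higher and 0 lower, beside 5.46% and 7.59% of all tested genes. The median log2 change was 0.01, against -0.03 over all tested genes.

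**Figure D3:**
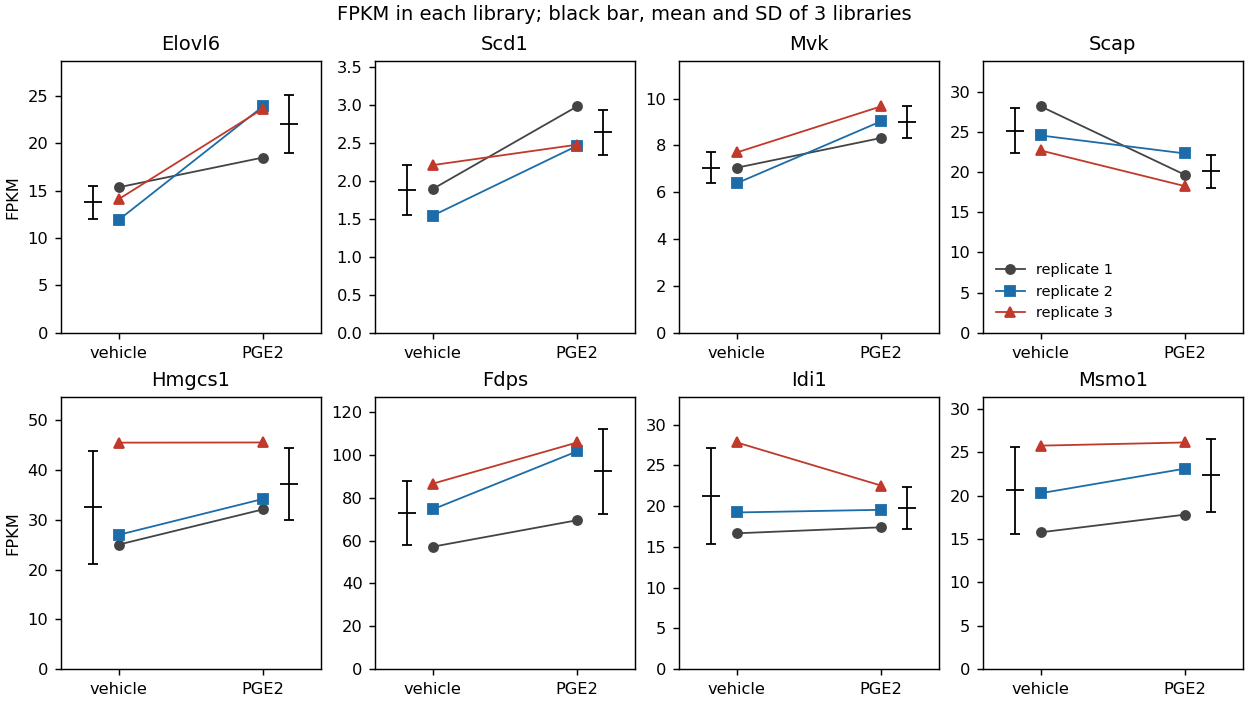
FPKM of 8 genes in each library (vertical axes from 0), with lines joining libraries of the same replicate number and black bars for the mean and SD of 3 libraries. Elovl6, Scd1 and Mvk are higher and Scap lower in all 3 PGE2 libraries, whereas Hmgcs1, Idi1 and Msmo1 vary more between replicate numbers than between vehicle and PGE2.

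None of the sterol synthesis enzymes passed: 0 of 18 were called by limma, beside 0.809% of all tested genes. Without adjustment 1 was higher and 0 were lower at the 0.05 level, beside 5.46% and 7.59% of all tested genes. The mean was higher with PGE2 for 11 and lower for 7, while it was higher for 43.3% of all tested genes. The median log2 change was 0.07, against -0.03 over all tested genes. Mvk, mevalonate kinase (mm10 chromosome 5 from 114444269 to 114460591, protein coding), was the gene under 0.05. It was at 7.05, 6.39 and 7.7 FPKM with vehicle and at 8.32, 9.03 and 9.67 with PGE2, without overlap in the annotated entry. Its assembled loci did overlap, at 7.31, 7.05 and 9.06 FPKM with vehicle and 8.43, 9.29 and 9.97 with PGE2. The ratio of the annotated entry was 1.24 (95% interval 1.05 to 1.47, adjusted p = 0.247 with limma). The log2 change of Mvk was 0.32 in FPKM, 0.20 in coverage and 0.22 with the assembled loci. Lss, which closes squalene epoxide into lanosterol, also did not overlap between groups, at 6.31, 6.52 and 7.02 against 7.09, 7.36 and 7.23 FPKM, and its interval of 0.939 to 1.25 includes no change. The assembled loci of Lss overlapped, at 6.58, 6.42 and 7.43 against 7.29, 7.34 and 7.15 FPKM.

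The enzymes of the early route were these. Acat2, which joins acetyl-CoA units, was at 16.2, 17 and 21.5 FPKM with vehicle and 18.0, 20.3 and 24.3 with PGE2, overlapping. Its close paralog Acat3 was listed at 1.73 to 3.43 FPKM. Hmgcs1, the HMG-CoA synthase of the cytosol and the gene whose printed promoter holds the sterol response core (mm10 chromosome 13 from 119690462 to 119708086), was at 25.0, 27.0 and 45.5 FPKM with vehicle and 32.1, 34.2 and 45.6 with PGE2. Both libraries numbered 3 stood above the other 4. The ratio of 1.17 had an interval of 0.799 to 1.71 (adjusted p = 0.769 with limma), and the log2 change of 0.23 became 0.49 without vehicle replicate 3 (adjusted p = 0.24, with 0.154 to 0.943 over the alternatives) and 0.07 without vehicle replicate 1. Pmvk and Mvd, the kinase and decarboxylase that follow Mvk, had ratios of 0.958 (0.773 to 1.19) and 1.06 (0.93 to 1.21).

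Idi1, the isomerase of isopentenyl diphosphate, was at 16.7, 19.2 and 27.8 FPKM with vehicle and 17.4, 19.6 and 22.5 with PGE2, so that vehicle replicate 3 was the highest of all. Fdps was at 57.1, 74.6 and 86.6 FPKM with vehicle and 69.5, 102 and 106 with PGE2. Each PGE2 library was above the vehicle library of the same number, by 0.28, 0.44 and 0.29 on the log2 scale, while the groups overlapped. The ratio of Fdps was 1.26 (95% interval 0.908 to 1.75), with adjusted p = 0.562 by limma and 0.0718 with the replicate block. In the annotation 26.7% of the exon bases of Fdps are shared with Gm43738, a gene model on the same strand at 33.8 to 47.2 FPKM, so the division of reads between them is uncertain. Fdft1, squalene synthase, had a ratio of 1.08 (0.941 to 1.23), and 18.3% of its exon bases lie opposite those of Ctsb. Whether reads were counted by strand is not given in the sources used here.

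The later enzymes, from squalene to cholesterol, had ratios close to 1 for the most part. Sqle, squalene epoxidase and a control point of the route, was at 22.5, 25.3 and 32.1 FPKM with vehicle and 24.1, 27.4 and 27.3 with PGE2, a ratio of 0.995 (0.799 to 1.24). Cyp51, the lanosterol demethylase, had a ratio of 1.04 (0.793 to 1.37). Msmo1, which removes the C4 methyl groups with Nsdhl and Hsd17b7, was at 15.8, 20.3 and 25.8 FPKM with vehicle and 17.8, 23.1 and 26.1 with PGE2. Within each replicate number Msmo1 was slightly higher with PGE2, but the numbers differed far more than the treatments. Nsdhl, Hsd17b7, Ebp and Sc5d had ratios between 0.957 and 1.03. Dhcr7, which forms cholesterol from 7-dehydrocholesterol, was at 6.19, 7.43 and 8.7 FPKM with vehicle and 5.81, 8.42 and 5.04 with PGE2. Its log2 change was -0.20 in FPKM and -0.06 in coverage, and its annotated entry held 33.5% to 57.4% of the locus. Tm7sf2, the C14 sterol reductase, held 8.89% to 20.3% of its locus, which it shares with Vps51, and its ratio was 1.19 (0.925 to 1.52).

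The level of the sterol genes differed between replicate numbers. Their summed level was 321, 350 and 437 FPKM with vehicle and 347, 409 and 444 with PGE2. In both groups replicate 1 was lowest and replicate 3 highest. With vehicle, 17 of 18 had their highest value in replicate 3, beside 41.6% of all tested genes, and Tm7sf2 was the exception. The same held for 7 of 9 fatty acid genes (77.8%) with vehicle, and for 2 of 9 with PGE2. Among the sterol genes with PGE2, 15 of 18 had their lowest value in replicate 1, beside 36.9% of all tested genes, and 12 of 18 their highest in replicate 3, beside 33.4%. The highest vehicle library exceeded the lowest 1.82-fold for Hmgcs1, 1.67-fold for Idi1, 1.63-fold for Msmo1 and 1.6-fold for Cyp51. Stard4, a sterol carrier of the cytosol listed with the control genes, was at 15.4, 17.1 and 25.2 FPKM with vehicle, the same order, and at 19.8, 19.7 and 21.7 with PGE2, where replicates 1 and 2 were level. The median SD within groups on the log2 scale was 0.19 for the sterol genes, 0.14 for the fatty acid genes and 0.15 over all tested genes. Replicate 3 was also the shallowest library of each group. Its Foxp3 was the lowest of each group (75.4 FPKM with vehicle, 91.1 with PGE2) and its Klrd1, an NK receptor gene, the highest (2.78 and 4.5). Other markers of their lists did not all follow. Il2ra was highest in vehicle replicate 3 (758 FPKM). Tnfrsf18 was lowest in vehicle replicate 3 (365) and highest in PGE2 replicate 3 (756). Ctla4 and Ikzf2 were lowest in vehicle replicate 3 only (191 and 7.75). Cd8a and Cd8b1 were lowest in vehicle replicate 3 (0.598 and 4.68) and highest in PGE2 replicate 3 (0.762 and 5.88). The part of depth and of these markers in the sterol levels was not tested.

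Compared within replicate numbers, the PGE2 library was above its vehicle library for 13 of 18 sterol genes in replicate 1, 17 of 18 in replicate 2 and 10 of 18 in replicate 3. Over all tested genes these shares were 45.1%, 50.4% and 43.1%. The median differences of the sterol genes were 0.09, 0.16 and 0.01 on the log2 scale, beside -0.03, 0.00 and -0.05 over all tested genes. Without replicate 3 of both groups the median log2 change of the 18 genes was 0.12, and 0 of them passed. With the replicate block 4 sterol genes were higher at an unadjusted p under 0.05, namely Fdps, Mvk, Acat2 and Hmgcs1, and 0 passed after adjustment. Of the 36 genes 7 reached that unadjusted level with the block, 6 of them higher and 1 lower, beside 19.7% of all tested genes (8.48% higher, 11.2% lower).

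**Figure D4:**
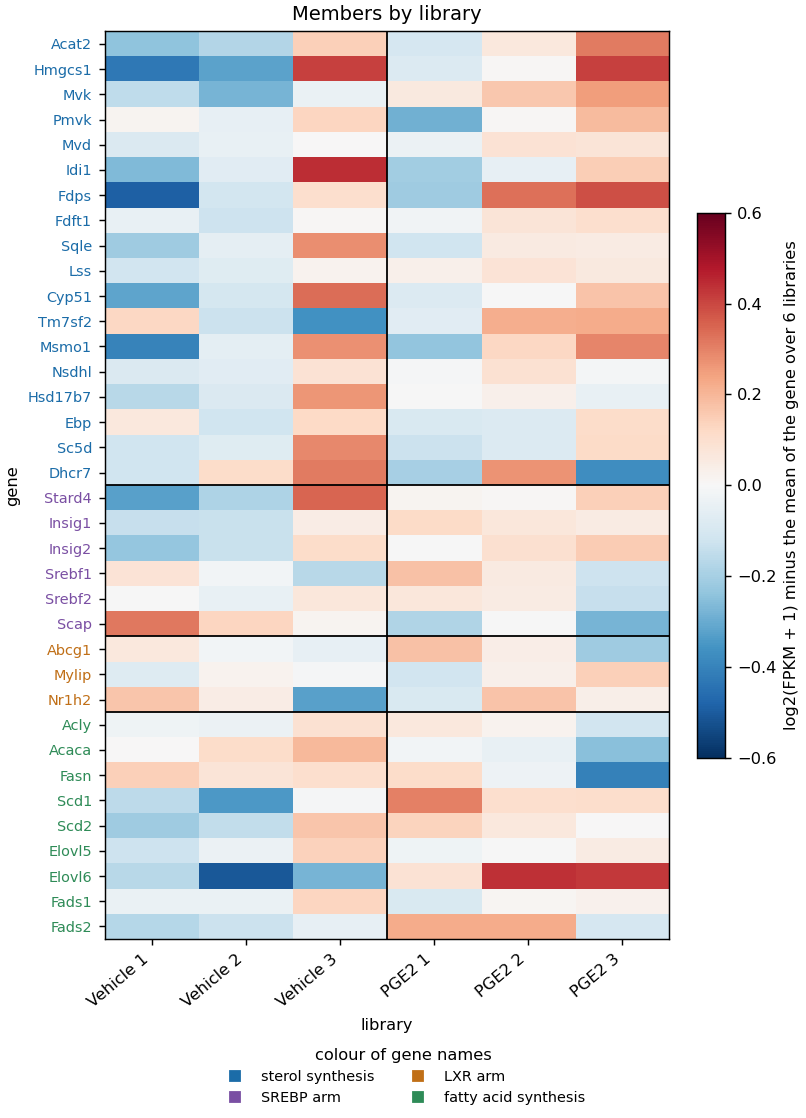
Each of the 36 tested genes in each library as log2(FPKM + 1) minus the mean of the gene over the 6 libraries (red above, blue below), grouped by role. Among the sterol synthesis genes vehicle 3 and PGE2 3 are mostly red and vehicle 1 and PGE2 1 mostly blue, while Elovl6 and Mvk are blue in the vehicle columns and red in the PGE2 columns.

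Among the SREBP genes, Scap was the one under an unadjusted p of 0.05. Scap (mm10 chromosome 9 from 110333288 to 110384950, protein coding) was at 28.2, 24.5 and 22.7 FPKM with vehicle and at 19.7, 22.3 and 18.2 with PGE2. The groups did not overlap in the annotated entry, although vehicle replicate 3 and PGE2 replicate 2 were nearly level. Its assembled loci overlapped, at 29.4, 24.5 and 22.7 FPKM with vehicle and 23.0, 22.3 and 18.2 with PGE2. The ratio of the annotated entry was 0.807 (95% interval 0.671 to 0.97, adjusted p = 0.307 with limma). The log2 change of Scap was -0.31 in FPKM, -0.20 in coverage and -0.26 with the assembled loci. Srebf1 was at 32.6, 30.4 and 27.3 FPKM with vehicle and 34.9, 32.0 and 28.1 with PGE2, and Srebf2 at 52.3, 50.8 and 54.9 with vehicle and 55.1, 54.2 and 47.6 with PGE2. Both overlapped between groups, with intervals of 0.877 to 1.25 and 0.859 to 1.14. FPKM of a whole gene does not separate the isoforms of Srebf1.

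Insig1, itself a known SREBP target, was at 28.7, 28.9 and 32.7 FPKM with vehicle and 34.4, 33.3 and 32.9 with PGE2. The groups did not overlap, but the libraries numbered 3 were almost equal, and the ratio was 1.11 (0.97 to 1.28). Insig2 was lower in level, at 4.82, 5.23 and 6.38 FPKM against 5.82, 6.3 and 6.6, with a ratio of 1.12 (0.928 to 1.36). Stard4 had a ratio of 1.08 (0.817 to 1.42). All 6 SREBP genes, Stard4 included, had intervals inside 1.5-fold.

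The LXR side showed little difference. Nr1h2, which encodes LXR beta, was at 52.9, 48.4 and 37.3 FPKM with vehicle and 44.1, 53.1 and 48.2 with PGE2, a ratio of 1.06 (0.839 to 1.33). Abcg1, a cholesterol exporter and LXR target, was at 8.08, 7.57 and 7.37 FPKM against 8.8, 7.91 and 6.49, with an interval of 0.826 to 1.21. Mylip, a ubiquitin ligase for lipoprotein receptors, had an interval of 0.839 to 1.26. Abca1, the exporter that loads high-density lipoprotein, was at 0.449, 0.363 and 0.354 FPKM with vehicle and 0.736, 0.567 and 0.372 with PGE2, and was not tested at these levels. The assembled loci on its strand were higher in level and differed in the opposite direction. They gave 3.52, 3.96 and 5.02 FPKM with vehicle and 3.46, 3.16 and 2.93 with PGE2, so the direction for Abca1 is uncertain. Of the 9 tested control genes 0 were called by limma, beside 0.809% of all tested genes. Scap alone reached the 0.05 level without adjustment, beside 13.0% of all tested genes. The median log2 change was 0.07, against -0.03 over all tested genes.

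Coverage and FPKM describe the same libraries and are not independent measures. Among genes with 1 transcript and over 1 FPKM, their ratio lay within 1% of the library median for 97.4% to 97.9%. The difference in FPKM was also seen in coverage for most genes. The sign was the same for 35 of the 36, Sqle with its change near 0 being the exception, beside 11371 of all 12113 tested genes. For 32 of them coverage showed 50% or more of the FPKM difference, beside 10342 of the 12113. Most tested genes thus behaved the same way.

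**Figure D5:**
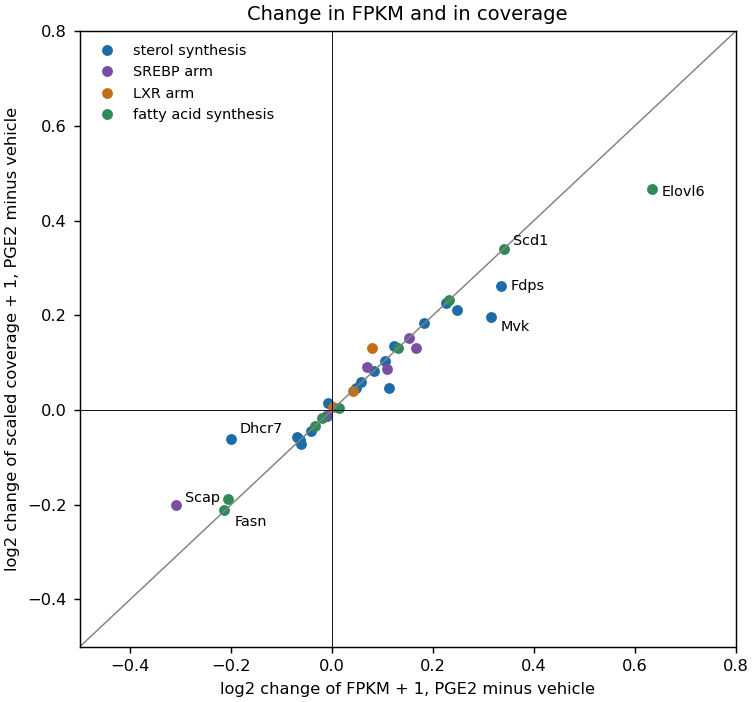
Log2 change of scaled coverage + 1 (vertical) against log2 change of FPKM + 1 (horizontal), PGE2 minus vehicle, for the 36 tested genes, with the line of equality in grey. Elovl6 lies farthest to the upper right at 0.64 and 0.47, and Mvk, Scap and Dhcr7 lie nearer to 0 in coverage than in FPKM.

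Other genes of sterol and fatty acid handling, 54 chosen by role, held 36 that were tested. None of those passed (0 of 36 by limma, beside 0.809% of all tested genes). At the unadjusted level 3 were higher and 1 was lower, beside 5.46% and 7.59% of all tested genes. Without overlap between groups, 5 were higher and 2 lower, beside 7.81% and 11.9% of all tested genes. The median log2 change was -0.03, equal to that of all tested genes. Npc2, which binds cholesterol in the lysosome, was at 90.0, 93.2 and 86.0 FPKM with vehicle and at 103, 121 and 117 with PGE2 (ratio 1.26, 95% interval 1.09 to 1.46, adjusted p = 0.166 with limma). Lipa, the lysosomal lipase of cholesteryl esters, was at 14.6, 15.4 and 15.0 FPKM against 18.0, 17.6 and 17.9 (ratio 1.18, 1.04 to 1.33). Soat1, which esterifies cholesterol for storage, was at 5.1, 5.3 and 6.16 FPKM against 7.33, 7.05 and 6.91 (ratio 1.24, 1.06 to 1.46). With the assembled loci in place of the annotated gene the Soat1 groups overlapped, at 16.8, 18.2 and 22.7 FPKM against 21, 18.8 and 19.6, and its log2 change went from 0.31 to 0.05. In the annotated entries the groups overlapped for none of these 3, and none passed after adjustment. Mbtps2, the protease that frees SREBP from the membrane, was at 3.71, 4.1 and 5.21 FPKM against 3.2, 3.31 and 3.33 (ratio 0.807, 0.658 to 0.99), and its log2 change of -0.31 was -0.16 with the assembled loci. Por, which passes electrons to Cyp51 and Sqle, had a ratio of 1.15 (0.992 to 1.32), and Scarb1, a receptor for high-density lipoprotein, one of 0.838 (0.688 to 1.02).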

How the data were processed

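RNA was measured in 3 vehicle and 3 PGE2 libraries, grouped by sample title. Trim Galore, HISAT2 and the mm10 build are named in the submitters' processing notes. Tool versions, the gene annotation and the software behind the tables were not given in the sources used here. Per the file headers, each table gives coverage and FPKM per gene. The FPKM deposited by the authors is scaled to transcript length and library size; the coverage signal, also deposited, is the mean read depth over a gene. No counts are held, so no counting interval is given. Only annotated genes were used, and IDs listed more than once were summed.

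Values were tested as log2(FPKM + 1), which understates the change of low genes, with limma 3.58.1 (R 4.3.3) with a variance trend, two-sided, Benjamini-Hochberg over 12113 genes, threshold 0.05. Coverage was divided by the median ratio of coverage to FPKM of genes with 1 transcript. The procedure was tested on simulated data. All 37 genes may be named, as may cell markers and the 6 other pathway genes with the smallest p. The members and lists were chosen with earlier results of these data known. The alternatives were another pseudocount, minimum, measure or scaling, the replicate block and leaving out libraries, and 2 were added after seeing the data.

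Same-numbered libraries deviated together from their group means (r = 0.23, 0.31 and 0.53 across genes for numbers 1, 2 and 3). Numbers 1 and 2 were not told apart, with r = 0.27 for vehicle 2 and PGE2 1 and 0.15 for vehicle 1 and PGE2 2. Number 3 had r from -0.43 to -0.29 with the other numbers. The block treated the titles' numbers as pairs, a pairing that the labels do not state. Figures were drawn with matplotlib 3.10.9.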

Additional observations from a re-analysis of the deposited data

How the results depend on the processing

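In 12 of 13 alternatives 0 of the 36 genes passed. The exception was Elovl6 with the assembled loci in place of the annotated gene, which makes the count of fatty acid genes called 1 in place of 0. The sign of the change held in every alternative for 18 of the 36. The count over all tested genes was 98. It was 159 with coverage and 395 with the replicate block, and it ran from 22 to 69 with 1 library left out (69 without vehicle replicate 3, and 22 to 53 without any other). Without replicate 3 of both groups it was 138. The replicate block changed no call among the members.

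The median log2 change of the sterol control genes, 0.07, was 0.087 with coverage, 0.080 with upper quartile scaling and 0.109 with the assembled loci. Without replicate 3 of both groups it was 0.083, and that of the fatty acid genes 0.071. With 1 library left out the sterol control median ran from 0.018 to 0.108, that of the fatty acid genes from -0.038 to 0.087, that of the other pathway genes from -0.038 to 0.0056, and that of the sterol synthesis genes from -0.002 to 0.131. The cause was not tested. With 3 libraries a group, the intervals of Hmgcs1, Fdps, Tm7sf2, Dhcr7, Scd1 and Elovl6 reach past 1.5-fold.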

Other observations

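Of the 54 other pathway genes, 17 had an entry under a mean of 1 FPKM and were not tested. Soat2, the second enzyme that esterifies cholesterol, averaged 0.947 ± 0.117 FPKM (SD, n = 3) in the vehicle libraries and 0.901 ± 0.115 in the PGE2 libraries. The assembled loci on its strand gave 0.847, 1.1 and 2.6 FPKM with vehicle and 3.62, 3.19 and 2.29 with PGE2, so its level and direction are uncertain. Gramd1c, a sterol transfer protein was at a mean of 0.712 FPKM over the 6 libraries, and Nr1h3, which encodes LXR alpha, was at 0.398, beside Nr1h2 at 46.2 ± 8.06 with vehicle. Ch25h, which makes 25-hydroxycholesterol, was at 0.033 and Acacb, the mitochondrial acetyl-CoA carboxylase, at 0.118. The assembled loci on the strand of Acacb were higher, at 0.872 to 4.31 FPKM. Elovl3 was listed at 0 in all 6 libraries. These genes were named after their values were seen.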
